A study of Mus musculus with 7 samples.

Results

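The regions described here are stretches of mouse chromatin that ATAC-seq called open after RANKL. It did not call them open in untreated cells or when RANKL was given together with the BET inhibitor I-BET. I-BET without RANKL was not part of the choice, and its 1 library called 101 of them. They were chosen by a rule on peak calls alone. The peaks of all 7 libraries were merged where they overlapped or touched, and a merged region was taken when both RANKL libraries had at least 1 bp of a peak in it while neither RANKL+Ibet library and neither Untreated library did. The rule took 1056 of 344401 merged regions, or 0.307%. It took 12.3% (95% interval 11.6% to 13%) of the 8594 regions that had a peak in each RANKL library but not in Untreated cells, which are named RANKL-opened regions below. Because absence with RANKL+Ibet is what selected the 1056 regions, it is a description and not a result. With 2 libraries in a group, an exact two-sided permutation test cannot go below p = 0.333, so no such test of a call was made.

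The cells were Raw264.7, a mouse monocyte-derived line that RANKL can drive toward osteoclasts; the source field of the labels reads bone marrow. ATAC-seq marks accessible DNA by the insertion of sequencing adapters, and each library came from 50000 cells, read as paired ends of 100 bp. The 4 groups were RANKL+Ibet (RANKL at 50 ng/ml with I-BET at 500 nM, 2 libraries), RANKL (50 ng/ml, 2 libraries), Ibet only (I-BET at 500 nM without RANKL, 1 library, labelled replicate 2) and Untreated (2 libraries). Treated cells were taken after 4 h. No genetic change was stated for any group, and all groups share this 1 line. The labels do not say that replicates were separate cultures, so the spread between them may be technical. In bulk cells, a region open in fewer cells and a region less open in every cell cannot be told apart.

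RANKL is the cytokine that starts osteoclast development: it binds the receptor RANK, the product of Tnfrsf11a, and acts through NF-kB and AP-1 factors to switch on Nfatc1, the transcription factor that drives the osteoclast programme. BET proteins such as Brd2 bind acetylated histones at enhancers and promoters and help RNA polymerase II into elongation. I-BET occupies their acetyl-lysine pockets and so takes them off chromatin.

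Of the 1056 regions, 25 (2.37%, 95% interval 1.54% to 3.48%) overlapped a promoter window, the 250 bases before to 50 bases after a RefSeq transcription start, and they touched 26 of 32851 such windows. The share was 1.49% (1.1% to 1.98%) among 3213 kept regions, which are RANKL-opened regions called in both RANKL+Ibet libraries, and 4.01% among all merged regions. The start of Oscar, the osteoclast-associated immunoglobulin-like receptor that gives osteoclast precursors a co-stimulatory signal, ranked first among them by the weaker of its 2 RANKL peaks. The windows printed here are those of known protein-coding genes among the 8 highest by that rank, with 1 of the pair Abcg5 and Abcg8 shown, because they are the places where a region with this pattern can be read as sequence. They are from RefSeq on GRCm38.p6, 5′ to 3′ on the strand of the gene, and capitals mark the bases inside the region. The Oscar window is chr7:3616108-3616407 on the minus strand, with 293 of its 300 bases inside. Abcg8, at chr17:84682871-84683170 on the plus strand, encodes a partner in the sterol exporter that it forms with Abcg5, whose start lies beside it. Rapgef5, a guanine nucleotide exchange factor for Rap GTPases, has its window at chr12:117516276-117516575 on the plus strand, all of it inside. Spns2, which exports sphingosine-1-phosphate, has its window at chr11:72474978-72475277 on the minus strand. Trak1, an adaptor for the transport of mitochondria along microtubules, has its window at chr9:121366708-121367007 on the plus strand.
Oscar: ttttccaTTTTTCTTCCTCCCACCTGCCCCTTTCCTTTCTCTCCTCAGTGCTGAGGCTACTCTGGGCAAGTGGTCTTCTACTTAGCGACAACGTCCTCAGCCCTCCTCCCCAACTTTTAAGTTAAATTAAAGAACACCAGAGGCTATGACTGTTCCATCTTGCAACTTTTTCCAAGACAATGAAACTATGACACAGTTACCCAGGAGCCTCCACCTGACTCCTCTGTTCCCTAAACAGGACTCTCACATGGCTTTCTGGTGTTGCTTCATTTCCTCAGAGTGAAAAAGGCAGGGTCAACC
Abcg8: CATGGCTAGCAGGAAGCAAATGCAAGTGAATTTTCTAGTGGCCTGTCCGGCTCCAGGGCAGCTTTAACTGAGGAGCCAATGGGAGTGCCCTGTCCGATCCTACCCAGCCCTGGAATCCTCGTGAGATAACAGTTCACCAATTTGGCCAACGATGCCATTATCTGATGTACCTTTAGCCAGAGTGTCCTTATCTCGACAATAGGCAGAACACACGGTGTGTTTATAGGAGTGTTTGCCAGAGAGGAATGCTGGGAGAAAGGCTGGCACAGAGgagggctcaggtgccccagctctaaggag
Rapgef5: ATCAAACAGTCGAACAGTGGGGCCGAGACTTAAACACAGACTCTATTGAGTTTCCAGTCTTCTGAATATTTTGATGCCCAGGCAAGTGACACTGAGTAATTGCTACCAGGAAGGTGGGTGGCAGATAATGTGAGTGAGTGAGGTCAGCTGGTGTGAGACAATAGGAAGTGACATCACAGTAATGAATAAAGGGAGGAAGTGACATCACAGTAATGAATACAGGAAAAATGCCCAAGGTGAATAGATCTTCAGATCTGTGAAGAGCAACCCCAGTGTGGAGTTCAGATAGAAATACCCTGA
Spns2: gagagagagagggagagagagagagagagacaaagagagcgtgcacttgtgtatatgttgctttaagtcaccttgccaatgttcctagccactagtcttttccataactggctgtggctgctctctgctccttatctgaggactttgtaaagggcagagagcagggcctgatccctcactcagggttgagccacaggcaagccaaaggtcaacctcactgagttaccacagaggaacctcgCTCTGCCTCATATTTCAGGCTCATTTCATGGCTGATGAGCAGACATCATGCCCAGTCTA
Trak1: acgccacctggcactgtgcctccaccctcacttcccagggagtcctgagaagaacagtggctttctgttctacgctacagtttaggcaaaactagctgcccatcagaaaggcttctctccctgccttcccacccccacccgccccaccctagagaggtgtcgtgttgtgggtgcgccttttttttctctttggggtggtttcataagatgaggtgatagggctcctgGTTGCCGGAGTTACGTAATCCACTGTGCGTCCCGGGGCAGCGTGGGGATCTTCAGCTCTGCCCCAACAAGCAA

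Short factor motifs were looked for in these windows on both strands. The Oscar window held the NFAT core TGGAAA, read on the strand opposite to the printed one, at bases 2 and 169. It held the MITF motif CATGTG at base 245 on the same opposite strand. Bases are counted from 1 at the printed 5′ end. Of the NFAT matches, only that at base 169 began inside the region. The region joins the peaks of several libraries, and this match lay within the RANKL 1 peak but just before the RANKL 2 peak. The MITF match lay within both RANKL peaks. The Rapgef5 window held the PU.1 motif GAGGAAGT at base 193 on the printed strand and the NFAT core at base 51 on the opposite one. The Spns2 window held the NFAT core at base 99 and the Trak1 window the C/EBP motif TTGCNNAA at base 82, both on the opposite strand and outside the region, and none of the 12 motifs was in the Abcg8 window. Over the 26 windows the NFAT core occurred in 9 (34.6%, 95% interval 17.2% to 55.7%), against 21.4% of all 32851 windows. The AP-1 motif TGANTCA was in 11.5% against 7.81% of all windows, the PU.1 motif in 3.85% against 3.2%, C/EBP in 11.5% against 10.8%, and CATGTG in 11.5% against 14.2%. The SP/KLF motif GGGCGGGG was in 15.4% against 17.6%, the E-box CACGTG in 3.85% against 7.15%, and the CTCF motif (CC, any 3 bases, AG, any 2 bases, GGC) in 11.5% against 8.61%. No window of the 26 held the RUNX motif TGTGGTT (5.27% of all windows), the CRE TGACGTCA (1.79%), the ISRE (GAAA, any 2 bases, GAAA, 3.44%) or the NF-kB motif (GGG, any 2 bases, TTTCC, 1.63%), and 0 of 26 allows up to 13.2%. For 12 of 12 motifs the interval for the 26 windows held the share of all windows. The AP-1, CRE and E-box letters read the same on both strands, so 1 place matches on each, and the NFAT and NF-kB letters can overlap. A match is a description of the letters and not a bound site.

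**Figure D1:**
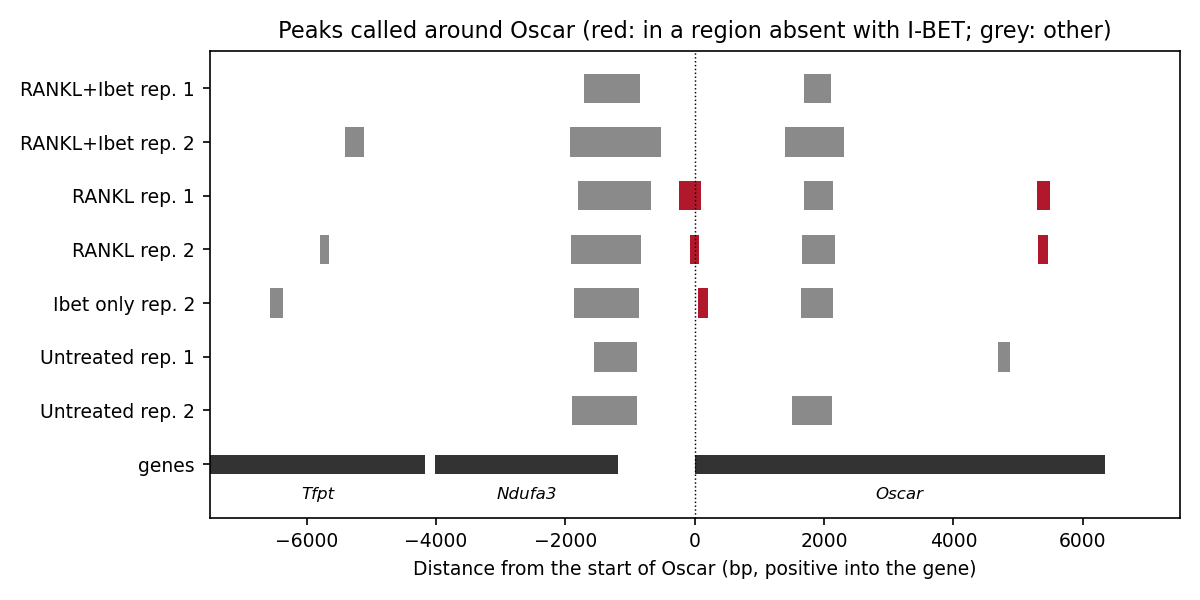
Peaks of each library around the start of Oscar, by distance in bp along the gene (x axis) and by library (rows), with the gene bodies beneath. Both RANKL libraries have a peak over the start and another about 5.4 kb into the gene, where neither RANKL+Ibet library nor either Untreated library has a peak.

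At Oscar the region over the start, 7:3615956-3616400, was a weak peak in each library that had it. RANKL 1 had a peak reaching from −243 to 95 bp around the start with a fold of 3.13, and RANKL 2 one from −76 to 73 bp with a fold of 3.61. Folds, −log10 p and −log10 q are the authors' own values for each peak, and a fold is the pileup of reads over the background of that library. Ibet only had a fold of 2.84 in a peak from 52 to 201 bp after the start, so Ibet only called the region although RANKL+Ibet did not. The nearest peak of a RANKL+Ibet or Untreated library, called a barred peak below, was 273 bp away. The other Oscar region, 7:3610659-3610869, lay 5288 to 5498 bp into the gene, with folds of 2.93 in RANKL 1 and 3.61 in RANKL 2 and no call in Ibet only. Between and beyond them the locus was open in other libraries: a region reaching from about 1.9 to 0.5 kb before the start was called in all 7, with folds of 23.6 and 24.2 in RANKL+Ibet, 19 and 28.9 in RANKL, 14.7 in Ibet only and 16.9 and 33.1 in Untreated. These folds rest on a different background in each library and rank nothing between libraries. The 14 merged regions nearest to Oscar included 2 RANKL-opened ones, and both were absent with RANKL+Ibet.

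The 1056 regions as a whole were weak peaks. In RANKL 1 the median fold was 2.74 (quartiles 2.34 to 2.93, range 1.95 to 5.47), the median −log10 p was 3.99 and the median −log10 q 2.19. In RANKL 2 the median fold was 2.96 (range 2.3 to 5.91), the median −log10 p 3.56 and the median −log10 q 1.86. In RANKL+Ibet 1, RANKL+Ibet 2, Untreated 1 and Untreated 2 there was no peak, by the rule. Ranked by −log10 p within its own list, the median region stood at the percentile 29.3 in RANKL 1 and 11.4 in RANKL 2, where 100 is the strongest peak. The kept regions stood at 53.7 and 36.7. Chosen without RANKL 2, the regions stood at 19.1 in RANKL 1, and chosen without RANKL+Ibet 2 they stood at 29.6 in RANKL 2. A −log10 q of at least 5 was reached by 42 regions (3.98%) in RANKL 1 and 22 (2.08%) in RANKL 2, against 48.6% and 36.1% of the kept regions, and by 1 region in both. That region, 5:133344975-133345447, had folds of 4.3 and 4.6 and −log10 q of 7.23 and 5.55, and lay 754301 bp from the nearest protein-coding gene. Peak strength therefore moved with absence, and its part in the absence was not tested.

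**Figure D2:**
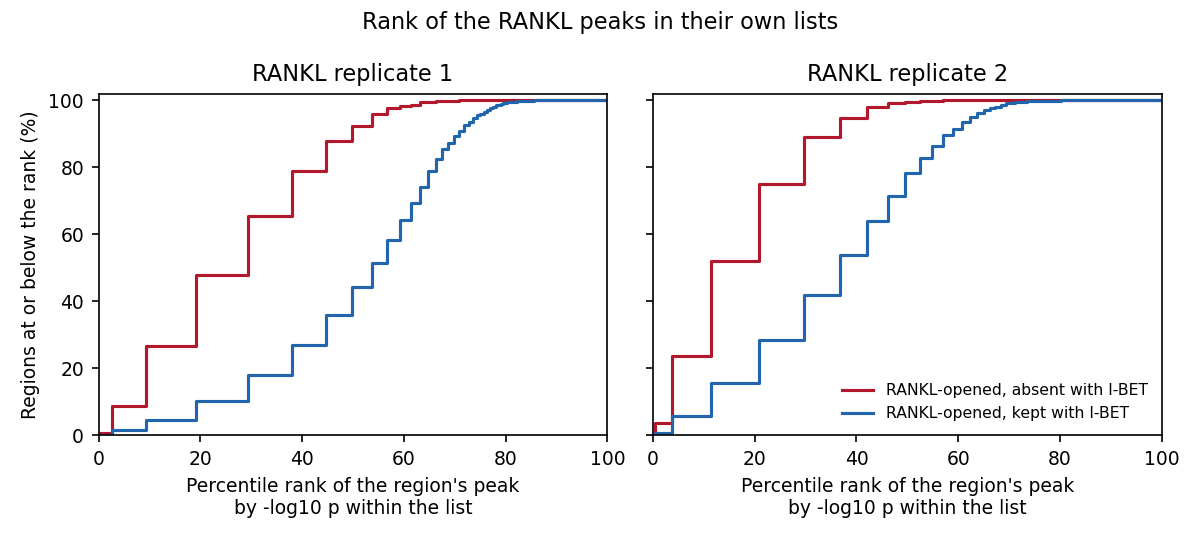
Cumulative share of regions (y axis, percent) up to a given percentile rank of −log10 p within each RANKL peak list (x axis, 100 the strongest), for the 1056 regions and the kept regions. The 1056 regions reach their medians at 29.3 in RANKL 1 and 11.4 in RANKL 2, left of the kept regions at 53.7 and 36.7.

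The number of regions counted as absent with RANKL+Ibet depended on single libraries. Among the 8594 RANKL-opened regions, 212 (2.47%) were called in RANKL+Ibet 1 alone, 4113 (47.9%) in RANKL+Ibet 2 alone, 3213 (37.4%) in both and 1056 in neither. The libraries differed in length and background: RANKL+Ibet 1 listed 125240 peaks and RANKL+Ibet 2 listed 166369, and the background pileup that the folds imply was 3.92 in RANKL+Ibet 1 and 13.8 in RANKL+Ibet 2, against 4.12 and 2.04 in the RANKL libraries, 1.11 in Ibet only, and 2.55 and 1.81 in Untreated. Without RANKL+Ibet 2 the rule would take 5169 regions, without RANKL 1 it would take 14603 and without RANKL 2 it would take 36812. These were 60.1% of the RANKL-opened regions without RANKL+Ibet 2, 43.6% without RANKL 1 and 66.7% without RANKL 2. Leaving out RANKL+Ibet 1 gave 1268 regions, Untreated 1 gave 1232 and Untreated 2 gave 1193. As shares, these 1232 were 11.4% of 10849 RANKL-opened regions without Untreated 1, and these 1193 were 3.77% of 31604 without Untreated 2, where the number of RANKL-opened regions grew far more than the number absent. Calls were the only measure of absence, since peaks below the threshold were not given.

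Regions called in both libraries of 1 group alone were also counted for the other groups. Among the 6 libraries of the rule, 2678 regions were called in both RANKL+Ibet libraries alone, 1056 in both RANKL libraries alone and 883 in both Untreated libraries alone. The count for RANKL lay between the others. Peak lists differed in length and background between the groups, and the part of this in the difference was not tested.

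The Ibet only library was not used to choose the regions. It called 101 of the 1056 regions, or 9.56% (95% interval 7.86% to 11.5%), against 1390 of the 3213 kept regions, or 43.3% (41.5% to 45%). Over all RANKL-opened regions it called 32.1%, and over all merged regions 35.9%. Regions called in 1 of the RANKL+Ibet libraries stood between, at 29.2% (27.9% to 30.6%). Regions called alone in another group also had low shares: Ibet only called 18.3% of the 2678 regions of RANKL+Ibet alone and 9.51% of the 883 of Untreated alone, so a share near 9.56% was not particular to the 1056 regions. The intervals for the 1056 and the kept regions did not overlap, but regions are not replicates, Ibet only is 1 library, and the RANKL+Ibet libraries share I-BET with it. The part of region length in this gap, a median of 355 bp for the 1056 regions and 548 bp for the kept ones, was not tested. Strength moved with this share among the kept regions: in bins of the weaker RANKL rank below 10, from 10 to 20, from 20 to 30 and above 30, Ibet only called 7.81%, 9.49%, 12.9% and 9.62% of the 1056 regions, and 33.1%, 37.2%, 38.8% and 49.4% of the kept regions. Within each bin the 1056 regions had the lower share. In the same bins, 27.6%, 18.9%, 10.3% and 1.75% of RANKL-opened regions were among the 1056. Without RANKL+Ibet 2 the share called in Ibet only was 25.6%, without RANKL 1 it was 5.31% and without RANKL 2 it was 4.16%. The 101 regions called in Ibet only had a median fold of 3.31 there, and 2 of them a −log10 q of at least 5.

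**Figure D3:**
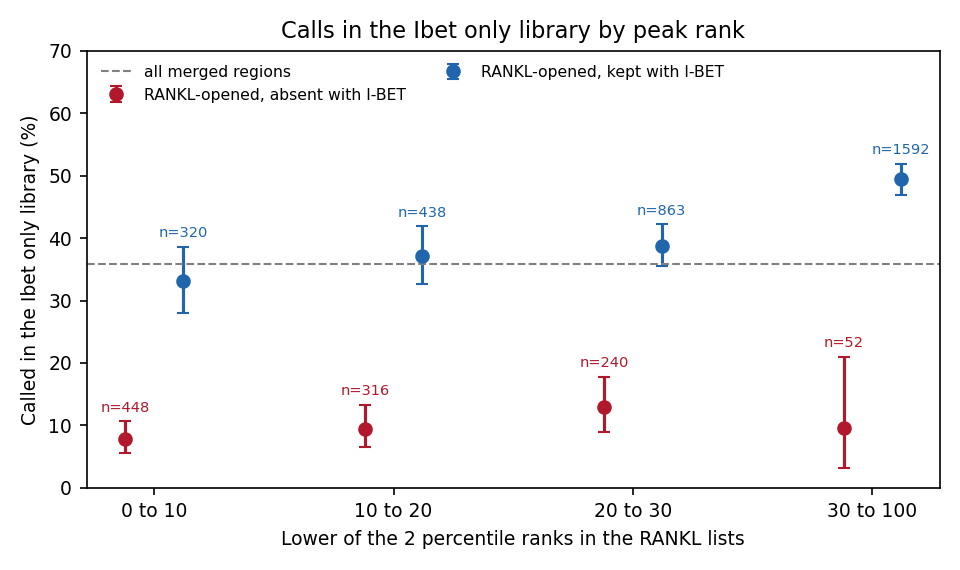
Share of regions called in the Ibet only library (y axis, percent, with 95% Clopper-Pearson intervals), for the 1056 regions and the kept regions in bins of the weaker RANKL percentile rank (x axis). The 1056 regions lie between 7.81% and 12.9%, below the kept regions at 33.1% to 49.4% in every bin.

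The distance from each of the 1056 regions to the nearest peak of the libraries that lacked it was measured. It was not measured for all merged regions, so the shares for these libraries together have no reference. A peak of a RANKL+Ibet or Untreated library lay within 1 kb of 550 of them (52.1%), within 10 kb of 971 (92%) and within 50 bp of 61 (5.78%), with a median distance of 902 bp (quartiles 288 to 2811 bp). For Untreated peaks alone the share within 1 kb was 38.7% (35.8% to 41.7%), against 27.9% (26.3% to 29.5%) of the kept regions. A region called in all 7 libraries lay within 10 kb of 49% of the 1056 regions and of 49.1% of the kept regions. The RANKL peaks within a region overlapped each other in 1049 of 1056 (99.3%), and their summits lay a median of 85 bp apart. Just outside the rule, 31 of the 7538 other RANKL-opened regions shared at most 50 bp of RANKL peak with RANKL+Ibet peaks, and just inside it, 61 of the 1056 had a barred peak within 50 bp.

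**Figure D4:**
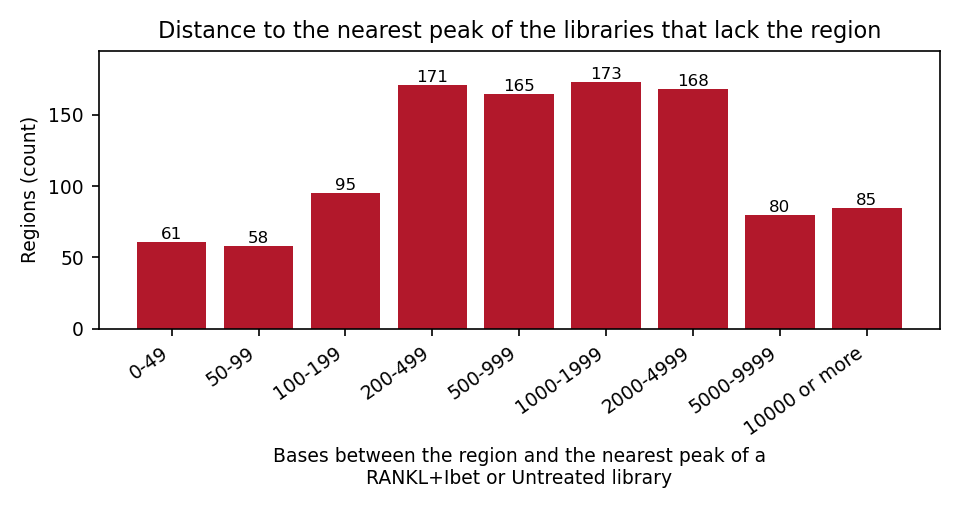
Number of the 1056 regions (y axis) by distance from the nearest peak of a RANKL+Ibet or Untreated library (x axis, bp, in classes). The median distance is 902 bp, and 550 regions lie within 1 kb of such a peak.

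By position, the 1056 regions had shares near those of all merged regions. Of the 1056, 92 (8.71%, 7.08% to 10.6%) were at most 1 kb from the nearest end of any protein-coding gene, against 4.61% (3.91% to 5.39%) of the kept regions and 9.01% of all merged regions, so the kept regions were the ones below that level. Without RANKL 2 the share was 5.03%. Inside a gene body lay 613 (58%, 55% to 61%), against 52.7% (50.9% to 54.4%) of the kept regions and 57.9% of all merged regions. Beyond 100 kb of any protein-coding gene lay 93 (8.81%), against 10% of the kept regions. The share of RANKL-opened regions that were among the 1056 ran from 8% on chromosome X to 15.8% on chromosome 7 (12.6% to 19.6%) over the 20 chromosomes with at least 20 RANKL-opened regions. The intervals of 2 of these 20 did not hold 12.3%, and chromosome Y had 0 of 1. Of neighbouring pairs of the 1056 regions, 20 lay within 10 kb of each other and 124 within 100 kb. Such pairs were not counted for other regions, so whether the 1056 cluster was not tested.

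The 963 regions within 100 kb of a protein-coding gene fell to 884 nearest genes, of which 814 had 1 region, 62 had 2, 7 had 3 and 1 had 4. The gene with 4 was Plxna2, a semaphorin receptor of the plexin family, with 11 RANKL-opened regions among 264 merged ones. Its regions had folds of 2.54 to 2.93 in RANKL 1 and 2.63 to 3.29 in RANKL 2, and Ibet only called 2 of them. Tet3, a dioxygenase that oxidises methylated cytosine, had 3 RANKL-opened regions and all 3 were among the 1056, with folds of 2.34 to 2.54 in RANKL 1 and 2.96 in RANKL 2. Syt14, a synaptotagmin, had 3 of 4, Megf6, a protein with EGF-like repeats, 3 of 6, Lmx1a, a LIM homeodomain factor, 3 of 6, Kcnd3, a potassium channel subunit, 3 of 5, and Ptprn2, a receptor-type phosphatase family member, 3 of 11. Kcnd3, Lmx1a and Ptprn2 had 210 to 348 merged regions each. The genes of this paragraph were named because at least 3 of the 1056 regions lay nearest to them. Their counts follow from that choice and cannot be set against the 12.3% of RANKL-opened regions over the genome.

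**Figure D5:**
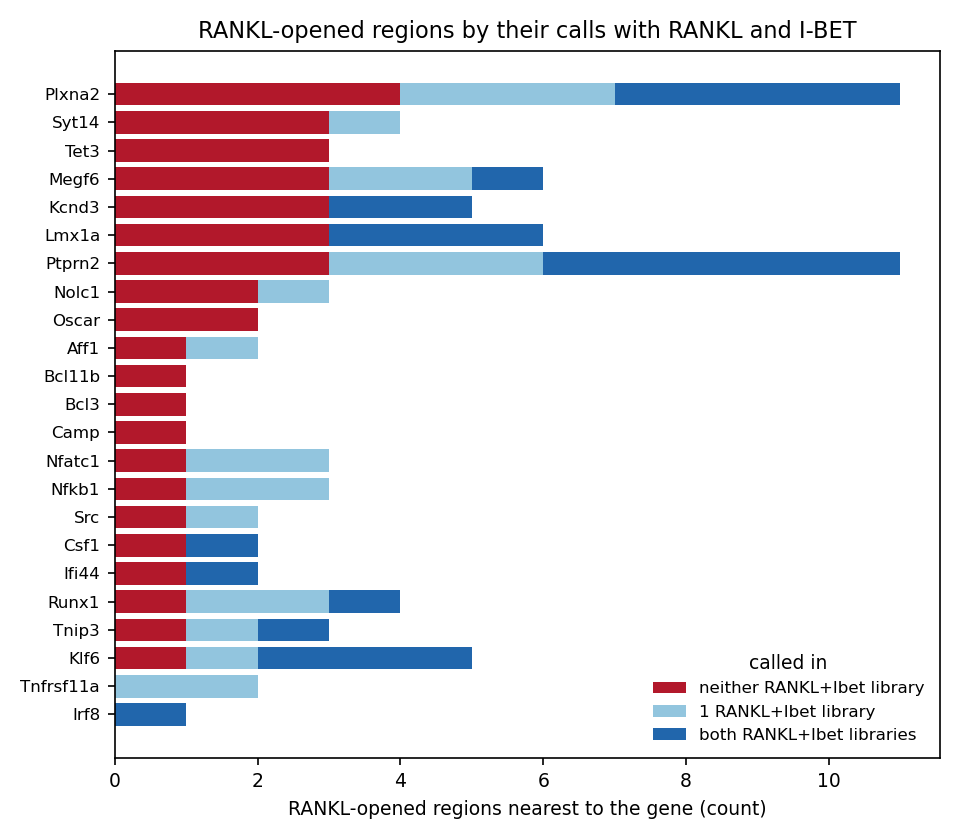
RANKL-opened regions at the genes named in the text (x axis, count), split by whether neither, 1 or both RANKL+Ibet libraries called them. Plxna2 has 4 regions called in neither. At Tet3, Oscar, Bcl3, Bcl11b and Camp every RANKL-opened region was called in neither.

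Among regulators of osteoclast development, Nfatc1 had 1 of its 3 RANKL-opened regions among the 1056, at 18:80723042-80723732, 9971 bp outside the gene. Its fold was 2.74 in RANKL 1 and 2.96 in RANKL 2, and Ibet only called it with a fold of 4.26. The other 2 were called in 1 RANKL+Ibet library each. Src, the tyrosine kinase that osteoclasts need to form their resorbing border, had 1 of 2, at 2:157420693-157421075, 2831 bp outside the gene, with folds of 3.32 in RANKL 1 and 3.29 in RANKL 2. Tnfrsf11a, the receptor gene, had 0 of 2, and Acp5 and Ctsk, which encode enzymes of the mature osteoclast, had no RANKL-opened region. Together with Oscar, 3 of 29 genes of the osteoclast list had 4 regions among 27 RANKL-opened ones, or 14.8%, against 12.3% over the genome.

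Signalling and early-response lists had 1 to 3 regions each. The share of their RANKL-opened regions among the 1056 was 13.6% for NF-kB and 5.56% for AP-1 and early response. It was 8.33% for inflammatory cytokines and 7.69% for interferon response, against 12.3% over the genome. In the NF-kB list, 3 of 25 genes had 1 region each, 3 of 22 RANKL-opened ones. For Nfkb1, which encodes the p105 precursor of an NF-kB subunit, it was 3:135736213-135736490, 44244 bp from the gene. For Bcl3, a nuclear cofactor of NF-kB, it was 7:19811320-19811706, inside the gene. For Tnip3, a binding partner of the NF-kB inhibitor A20, it was 6:65644080-65644321, 10040 bp from the gene. The folds of these 3 regions were 2.54 to 2.74 in RANKL 1 and 2.63 to 3.29 in RANKL 2. At Bcl3 this was the sole RANKL-opened region of 17 merged ones. In the AP-1 and early response list 1 of 18 RANKL-opened regions was among the 1056, at Klf6, a zinc finger factor, and it lay 85561 bp from the gene. Fos and Myc had no RANKL-opened region. The inflammatory cytokine list had 1 of 12, at Csf1, the macrophage growth factor, 51750 bp from the gene and called in Ibet only with a fold of 2.36. The interferon list had 1 of 13, at Ifi44, an interferon-induced gene, with folds of 4.3 in RANKL 1 and 2.63 in RANKL 2.

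Lists of cell identity and growth had 0 to 2. The macrophage identity list had 1 of 23, inside Runx1, a haematopoietic transcription factor, at 16:92607182-92607546 with folds of 2.15 in RANKL 1 and 2.96 in RANKL 2. Irf8, a macrophage factor that restrains osteoclast formation, had 1 RANKL-opened region and it was kept. The Myc and ribosome biogenesis list had 2 of 14, both at Nolc1, a nucleolar chaperone, at 19:46078750-46079005 and 19:46088189-46088622. The BET and elongation list had 1 of 12, inside Aff1, a scaffold of the elongation complex that BET proteins help recruit, called in Ibet only with a fold of 4.26, and Brd2 had no RANKL-opened region. The oxidative phosphorylation list had 0 of 3. Over all 13 lists, 16 of 157 RANKL-opened regions were among the 1056, or 10.2%, against 12.3% over the genome, and 14 of 270 genes had at least 1.

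Markers of other cells were read from the same lists. Regions called in all 7 libraries lay within 1 kb of 8 of 8 macrophage genes examined, such as Csf1r with 3 and Spi1 with 5. None lay at Ms4a1, Cd3e, Cd3g, Col1a2, Sp7, Mpo, Camp, Gata1 or Hbb-b1, while Runx2 had 11, Gata3 had 4, Cd4, Col1a1 and Ebf1 had 2 each, and Cd79a, Pax5, Bcl11b, Alpl and Elane had 1 each. Among the 1056, the B lymphocyte list had 0 of 4 RANKL-opened regions and the fibroblast and osteoblast list 0 of 5. The T lymphocyte list had 1 of 2, 88180 bp from Bcl11b. The granulocyte and erythroid list had 1 of 2, 12087 bp from Camp. With 2 to 5 RANKL-opened regions each, these lists are too small to set against the 12.3% over the genome. The Camp region, at 9:109861543-109861794, overlapped the promoter window of Gm39427.

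The 7 regions with the highest weaker rank lay at genes of varied roles, apart from the one on chromosome 5 given above, and 8 more tied for the next place at a rank of 42.1. The first was 14:87572728-87573161, 27220 bp from Tdrd3, a tudor domain protein, with folds of 3.32 in RANKL 1 and 5.59 in RANKL 2. The next were inside Prelid1, a mitochondrial lipid transfer protein, at 13:55324454-55324859, and Mme, the membrane endopeptidase neprilysin, at 3:63376982-63377180, each with folds of 3.32 in RANKL 1 and 4.93 in RANKL 2. A barred peak lay 2 bp from the Prelid1 region but 33786 bp from the Mme region. Ak7 and Cyb5r3 had 1 each, with folds of 3.32 in RANKL 1 and 4.6 in RANKL 2. Of these 7 regions Ibet only also called 1, in Slc7a14, with a fold of 3.31, and it called 1 of the 8 tied regions.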

How the data were processed

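The authors deposited a separate ATAC-seq peak list for each library, so peaks were called without pooling. MACS2, Bowtie2, SAMtools, Picard, bedtools, cutadapt and FastQC, with the build mm10, are named per the submitters' processing notes, and their versions and settings are not given in the sources used here. Each deposited line has a score, a fold (a ratio of pileup to background), a −log10 p, a −log10 q and a summit position, all the authors' values, and peaks were ranked or filtered by them only inside their own list. In 100% of lines the score, as deposited, was 10 times the −log10 p cut to a whole number. Read depth is unknown. Within each library the deposited folds were whole multiples of 1 step (tolerance 0.02 of a step), from which the background pileup was computed.

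Peaks of the 7 lists (975394 in all) were merged where they overlapped or touched, and a region counted as called in a library that had a peak over at least 1 bp of it. Python 3.11.15, pandas 2.3.3, numpy 2.4.6, scipy 1.17.1 and matplotlib 3.10.9 were used, and the merging was checked against bedtools 2.31.1 and tested on simulated peak lists. Intervals of shares are exact Clopper-Pearson 95% intervals and cover counting error over regions only. Each region was given the nearest gene among 21887 protein-coding ones of RefSeq GRCm38.p6 within 100 kb, by distance to the gene body. Of 272 genes in 13 lists 270 were in that table. The planned search for motifs in 300 base windows around summits was not run, as no genome sequence was held, and promoter windows were used in its place.

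The regions and the gene lists were chosen with earlier results of these data known. Genes were named by a rule: those nearest to at least 3 of the regions (at most 12), list genes nearest to at least 1 (at most 6 per list), always Nfatc1, Fos, Myc, Irf8, Brd2, Acp5, Ctsk, Oscar, Src, Nfkb1 and Tnfrsf11a, the 8 regions with the highest weaker rank (7 given, as the eighth place was tied), and at most 8 promoter windows by that rank. A few of the genes so chosen are left out of the text. Alternatives were stricter q thresholds, lists of equal length (117175 peaks), 50% cover, other gene distances, a distance from barred peaks, 1 replicate number at a time and leaving out each library.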

Additional observations from a re-analysis of the deposited data

How the results depend on the processing

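No paired analysis was possible because the counts of regions come from no test. Taking 1 library per group by number gave 55612 regions for number 1 and 16826 for number 2, with 67.8% and 43.9% of RANKL-opened regions absent, 15.1% and 6.29% called in Ibet only, and 29.9% and 42% within 1 kb of a barred peak; for number 1, 5.67% lay within 1 kb of a gene end and 53% inside a gene. A −log10 q of at least 5 in every list, the barring lists included, gave 16 regions, of which 1 overlapped the 1056. The 16 were 0.421% of the RANKL-opened regions at that threshold. Of the 16, 0% were called in Ibet only, 18.8% lay within 1 kb of a gene end and 62.5% inside a gene. A barred peak was near 18.8%, and the median ranks were 62.2 and 46.2. That threshold in both RANKL lists only left 1 of the 1056, or 0.101% of the RANKL-opened regions so filtered. Its shares were 0% in Ibet only, at gene ends, inside genes and near a barred peak, with ranks of 63.1 and 46.2. Lists of equal length gave 13.1% absent, 12.7% in Ibet only and 45.2% near a barred peak, and 50% cover gave 9.7%, 3.63% and 38.2%. Barring peaks within 1 kb left 506 regions. With genes within 50 kb, the AP-1, cytokine and T lymphocyte lists had 0. Leaving out 1 library at a time, the count ran from 1193 to 36812, the share absent from 3.77% to 66.7%, the share in Ibet only from 4.16% to 25.6%, at gene ends from 5.03% to 9.14%, inside genes from 51.4% to 60.8%, near a barred peak from 35.4% to 52.1%, and the median ranks from 19.1 to 37.9 in RANKL 1 and from 11.4 to 29.6 in RANKL 2. In all, 87 values stayed within the limits set and 56 moved. The 87 include motif shares with wide intervals and gene list counts of 0. They also include the 779 regions that lists of equal length gave, against 1056, so the tally is no measure of stability. The cause of the moves was not tested. Depth, which limits weak peaks most, is unknown.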

Other observations

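Of the 1056 regions, 0 overlapped a miRNA hairpin of RefSeq and 2 lay within 1 kb of one, at 362 bp from Mir3076 and at 850 bp from Mir8102. The same counts were not made over all merged regions, so these have no reference and say nothing particular about the 1056.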
